A study of Homo sapiens with 12 samples.

Results

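The cytosolic heat shock proteins are the chaperones that bind misfolded or newly made protein in the cytosol and nucleus, and BAG3 is a co-chaperone that couples them to autophagy. The genes described here are HSPA1A, HSPA1B, HSPA8, HSP90AA1, HSP90AB1, DNAJB1, DNAJB4, HSPH1, HSPB1 and BAG3. They were taken by symbol and are 10 of the 28278 gene symbols in the count table. Of these 10, 8 had counts that could be compared, and HSPA1A and HSPA1B had too few.

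The data are RNA-seq libraries of stem cell-derived motor neuron cultures. The cells were WA09-Islet1-GFP, human embryonic stem cells in which a reporter makes GFP wherever the transcription factor Islet1 is expressed. For 16 hours the treated cultures were exposed to cis-chlordane, an organochlorine pesticide, and the control cultures to its vehicle DMSO. FACS then separated each culture into a GFP-positive and a GFP-negative fraction, which gave 4 groups (control GFP-positive, treated GFP-positive, control GFP-negative, treated GFP-negative) and 12 libraries, 3 in each group. The labels give a dose of 10 µM and the study's methods give a higher dose for the sequenced cultures. Treated libraries carry titles that start with the word untreated, so the treatment entry was used to assign them. All cultures came from this single reporter line. The libraries held between 23414935 and 38347050 counts. ISL1, which encodes Islet1, stood at 65.7 ± 3.13 CPM (counts of a gene scaled by the total of its library) in control GFP-positive cells and 2.57 ± 0.204 in control GFP-negative cells (SD, n = 3), in the direction of the sort. In treated cells ISL1 was lower in both fractions, at 12.0 ± 3.71 and 0.549 ± 0.152 CPM.

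HSP70 proteins (HSPA8 in unstressed cells, HSPA1A and HSPA1B after stress) take up unfolded protein, J proteins such as DNAJB1 and DNAJB4 deliver it and start the ATP cycle, and the HSP110 protein HSPH1 and the BAG proteins exchange the nucleotide. HSP90 proteins finish the folding of kinases and receptors, and small heat shock proteins such as HSPB1 hold unfolded protein without ATP. In the heat shock response the factor HSF1 binds heat shock elements in the promoters of these genes and raises their transcription within hours, whereas the unfolded protein response raises the chaperones of the endoplasmic reticulum (ER) through other promoter elements. Motor neurons are known for a high threshold for the heat shock response.

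The promoter sequences are shown because 8 of the 10 members hold a heat shock element, while HSPA5 (BiP), used for comparison, holds another element. HSPA5 was the only ER chaperone whose promoter is shown here. A heat shock element was searched as GAANNTTC or TTCNNGAA, in which N is any base, in the RefSeq window from 250 bases before to 50 bases after each start site of GRCh38.p14, on both strands. It was present in 8 of the 10 members and absent from the windows of BAG3 and HSPH1, while 16.2% of the 27305 genes with such a window held it. A heat shock element of 3 units, in which GAANNTTC is continued by NNGAA or TTCNNGAA by NNTTC, contains the shorter motif. It was found in 3 members, HSPA8, HSP90AA1 and HSP90AB1, and in 0.608% of all genes. The ER stress element (ERSE), CCAAT and CCACG at a fixed spacing on either strand, was present in 0 of the 10 members and in 0.0916% of all genes, HSPA5 included. With so rare an element, 0 of 10 does not set the members apart from other genes. CCAAT, which is also part of the ER stress element, was present on either strand in 5 members and 39.7% of genes, and TATAAA in 2 members and 14% of genes. These are matches of letters in short windows and were not tested for binding. The stretches below run 5′ to 3′ on the strand of the gene, with the matched element in capitals.
DNAJB4, chr1:78004821-78004868, plus strand: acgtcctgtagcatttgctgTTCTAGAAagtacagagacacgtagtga
HSPA8, chr11:123062171-123062199, minus strand: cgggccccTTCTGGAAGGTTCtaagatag
HSP90AA1, chr14:102087085-102087152, minus strand: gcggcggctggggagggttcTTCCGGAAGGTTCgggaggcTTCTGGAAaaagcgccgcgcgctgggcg
HSPB1, chr7:76302471-76302518, plus strand: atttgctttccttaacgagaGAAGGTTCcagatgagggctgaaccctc
HSPA1A, chr6:31815417-31815464, plus strand: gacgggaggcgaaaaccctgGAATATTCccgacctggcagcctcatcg
HSPA1B, chr6:31827613-31827660, plus strand: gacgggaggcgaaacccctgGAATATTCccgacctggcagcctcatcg
HSPA5, chr9:125241386-125241414, minus strand: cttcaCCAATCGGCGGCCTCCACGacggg
The stretches of HSPA1A and HSPA1B differ at 1 of 48 bases, and the likeness of these genes continues through their exons.

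HSPA1A and HSPA1B, the stress-inducible HSP70 genes on chromosome 6, had too few counts to be measured. HSPA1A had between 0 and 13 counts per library and HSPA1B between 2 and 23. In hg38 with its alternate contigs, 2301 of 2301 exonic windows of 100 bases in HSPA1A and 2418 of 2418 in HSPA1B had an exact copy elsewhere, and in 1666 of the windows of each gene, 72.4% in HSPA1A and 68.9% in HSPA1B, a copy was on the main chromosomes. On alternate contigs, copies were found for 95.7% of the HSPA1A windows and 95.9% of the HSPA1B windows. RPS18, a ribosomal protein gene on the same chromosome with copies for 25 of its 25 windows, had 9 to 191 counts per library, whereas the median of the 30 other RPS genes was between 9195 and 28444 counts. The sources used here do not state whether the alignment index held alternate contigs or how reads with several positions were counted. HSPA1A passed the filter on low counts in no comparison, and HSPA1B passed it in the GFP-positive, control and interaction fits but is given no fold change here. The summed counts of the pair gave a log2 fold change between treated and control of -0.72 in GFP-positive cells (adjusted p = 0.27, edgeR) and 0.56 in GFP-negative cells (adjusted p = 0.52, edgeR). The part of the repeated sequence in these low counts was not tested, and they were not read as levels of the inducible HSP70 transcripts.

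**Figure D1:**
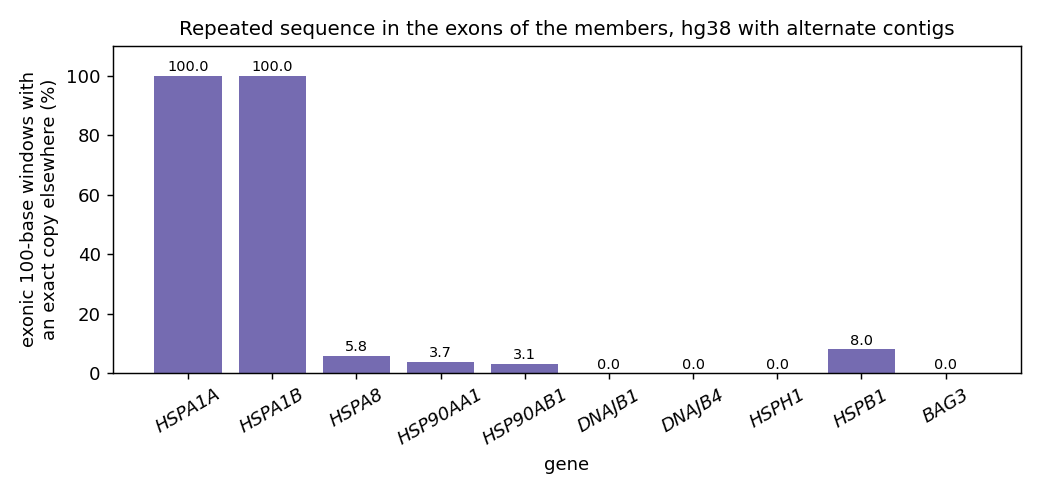
Share of exonic windows of 100 bases with an exact copy elsewhere in hg38 with its alternate contigs, in percent, for each of the 10 genes. HSPA1A and HSPA1B stand at 100% and the other 8 genes at 7.96% or less.

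The other 8 members had few or no repeated windows, from 0% in DNAJB1, DNAJB4, HSPH1 and BAG3 to 7.96% in HSPB1. Per kilobase of transcript, the most abundant in control GFP-positive cells were HSP90AB1, the constitutive cytosolic HSP90, at 764 ± 29.1 CPM per kb and HSPA8, the constitutive HSP70 (HSC70), at 711 ± 99.3 CPM per kb, which did not differ beyond their spread. HSP90AA1, the inducible HSP90, followed at 269 ± 40.9 CPM per kb. DNAJB1 at 60.5 ± 9.56 and HSPB1 at 49.9 ± 7.18 CPM per kb were next, then HSPH1 at 16.9 ± 5.32 and BAG3 at 13.4 ± 1.37 CPM per kb, and within each of these pairs the spreads overlapped. DNAJB4 was the lowest, at 2.60 ± 0.677 CPM per kb. All 10 members together took between 0.431% and 0.668% of the counts of a library, and their summed level was 4738 ± 240.2 CPM in control and 5224 ± 792 CPM in treated GFP-positive cells.

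The main question of the design is what cis-chlordane changed in the GFP-positive cells. DNAJB4, a J protein of the cytosol that partners HSP70, was the only counted member past a 2-fold change, rising 3.36-fold, where 12.8% of all genes were called higher by at least 2-fold. It spans chr1:77979175-78017964 on the plus strand of hg38 and has 3 exons in its main transcript. HSP90AA1 rose by 1.41-fold and HSPH1 by 1.44-fold, calls that were lost in 4 and 9 of 17 alternatives. HSPA8, DNAJB1, HSPB1, HSP90AB1 and BAG3 did not pass the test. Of the 8 counted members 3 were called higher and 0 lower, at an adjusted p under 0.05 by the quasi-likelihood test of edgeR, while 26.5% of all genes tested were called higher and 24.4% lower. The median log2 fold change of the 8 was 0.36, beside 0.03 over all 15333 genes. For 7 of the 8 counted members the 95% interval of the difference excluded a doubling, and for 8 of 8 it excluded a halving.

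DNAJB4 stood at 6.75, 6.11 and 9.79 CPM in the control GFP-positive libraries and at 17.8, 17.5 and 37.3 CPM in the treated ones, in the order of the replicate numbers. All treated libraries lay above all control libraries, and treated replicate 3 was far above the other two. The log2 fold change was 1.75 with an SE of 0.25 (adjusted p = 3.1e-07, edgeR), and DNAJB4 was called higher when any of the libraries was left out. With the trend of counts with GC content removed the log2 fold change of DNAJB4, whose transcript has 32.7% GC, was 1.00 and remained past the test (adjusted p = 0.00049, edgeR). BAG3, the co-chaperone of selective autophagy, was at 30.7, 37.7 and 34.6 CPM in control and 39.8, 35.9 and 53.2 CPM in treated GFP-positive libraries. The groups overlapped, and the log2 fold change of BAG3 was 0.39 with a 95% interval from 0.02 to 0.76 (adjusted p = 0.071, edgeR).

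HSP90AA1 was at 947, 716 and 943 CPM in control and 976, 1088 and 1454 CPM in treated GFP-positive libraries. The groups did not overlap, but the lowest treated library exceeded the highest control library by a small margin. The log2 fold change of HSP90AA1 was 0.50 with an SE of 0.17 (adjusted p = 0.014, edgeR). HSP90AB1 was at 1915, 2038 and 1905 CPM in control and 2146, 2286 and 2580 CPM in treated GFP-positive libraries. It too was higher in each treated library than in each control library, with a log2 fold change of 0.33 and a 95% interval from 0.01 to 0.64 (adjusted p = 0.076, edgeR). HSPB1 was lower in each treated library than in each control library, at 29.0, 28.8 and 30.9 against 42.1, 41.9 and 32.4 CPM, with a log2 fold change of -0.33 and a 95% interval from -0.69 to 0.03 (adjusted p = 0.12, edgeR). Groups without overlap and with treated libraries higher were found in 3 of the 8 counted members and in 26.9% of all genes, and with treated libraries lower in 1 of 8 and in 30.6% of all genes.

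HSPH1, the HSP110 exchange factor, was at 70.1, 75.6 and 121 CPM in control and 101, 77.0 and 187 CPM in treated GFP-positive libraries. These groups overlapped, and the log2 fold change of 0.52 (SE 0.22, adjusted p = 0.046, edgeR) was close to the threshold. HSPH1 was not called by DESeq2 (adjusted p = 0.39), or by edgeR with RLE scaling (adjusted p = 0.053), all 12 libraries in 1 fit (adjusted p = 0.26) or the length trend removed (adjusted p = 0.11). HSPA8 was at 1352, 1716 and 1764 CPM in control and 1287, 1233 and 1640 CPM in treated GFP-positive libraries, a log2 fold change of -0.15 with a 95% interval from -0.48 to 0.18 (adjusted p = 0.47, edgeR). DNAJB1, the main J protein partner of HSPA1A in the heat shock response, was at 112, 155 and 139.9 CPM in control and 91.1, 84.2 and 150.0 CPM in treated GFP-positive libraries. Its groups overlapped as well, with a log2 fold change of -0.25 and a 95% interval from -0.63 to 0.12 (adjusted p = 0.26, edgeR).

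**Figure D2:**
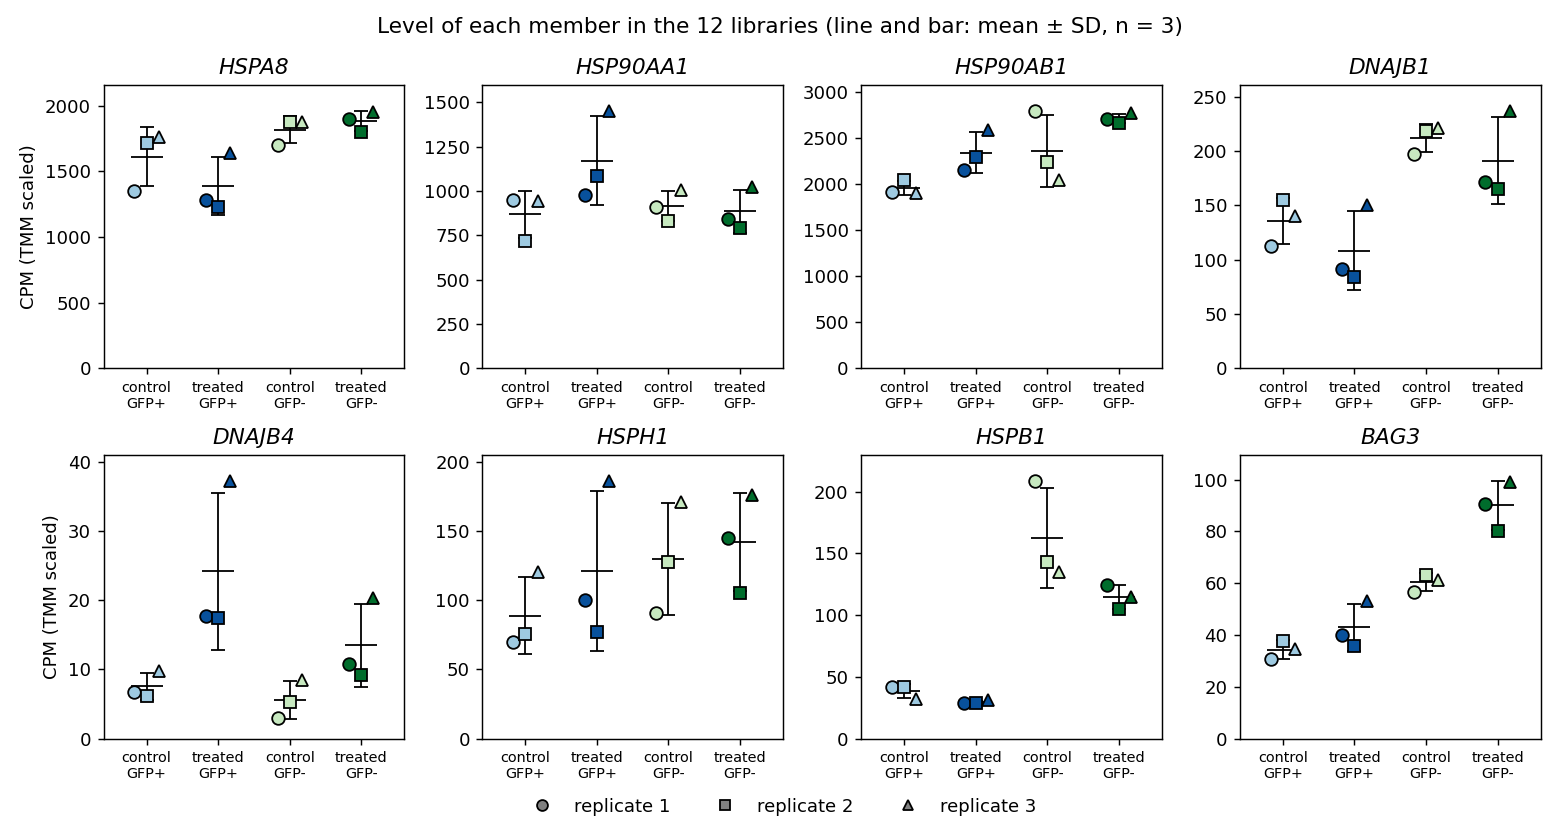
Level of the 8 counted members in CPM with TMM scaling in each library, by group, with a line and bar for the mean and SD of 3 libraries and a marker shape for the replicate number. DNAJB4 was higher in each treated library than in the control libraries of the same fraction, HSPB1 was high in the GFP-negative fraction, and replicate 3 was the highest treated GFP-positive library in 8 of 8 genes.

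Part of these values rested on treated replicate 3. In treated GFP-positive cells it was the highest of the 3 libraries in 8 of 8 counted members, whereas it was the highest in 37.9% of all genes, and in treated GFP-negative cells in 7 of 8 members and in 40.0% of all genes. DNAJB4 and HSPH1 were also highest in replicate 3 of both control groups, so that DNAJB4 deviated from its group mean by 0.71, 0.66, 0.38 and 0.66 on the log2 scale in the treated GFP-positive, treated GFP-negative, control GFP-positive and control GFP-negative replicate 3. Without treated GFP-positive replicate 3, HSPH1 had a log2 fold change of 0.07 (adjusted p = 0.78), HSP90AA1 of 0.31 (adjusted p = 0.15) and DNAJB1 of -0.56 (adjusted p = 0.0054), all by edgeR. DNAJB1 was then called lower. The call of HSP90AA1 was also lost without control replicate 2 (adjusted p = 0.088), and that of HSPH1 without control replicate 1 (adjusted p = 0.19) or control replicate 2 (adjusted p = 0.27). With replicate 3 left out of both groups, DNAJB4 was the only member called higher and DNAJB1 (log2 fold change -0.54) and HSPB1 (log2 fold change -0.47) were called lower. That setting was chosen after seeing the data. With the GC trend removed, HSP90AA1 had a log2 fold change of 0.12 (adjusted p = 0.48), HSPH1 of 0.05 (adjusted p = 0.87), HSPA8 of -0.36 (adjusted p = 0.046), BAG3 of 0.62 (adjusted p = 0.0066) and HSPB1 of 0.15 (adjusted p = 0.4), all by edgeR in GFP-positive cells.

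**Figure D3:**
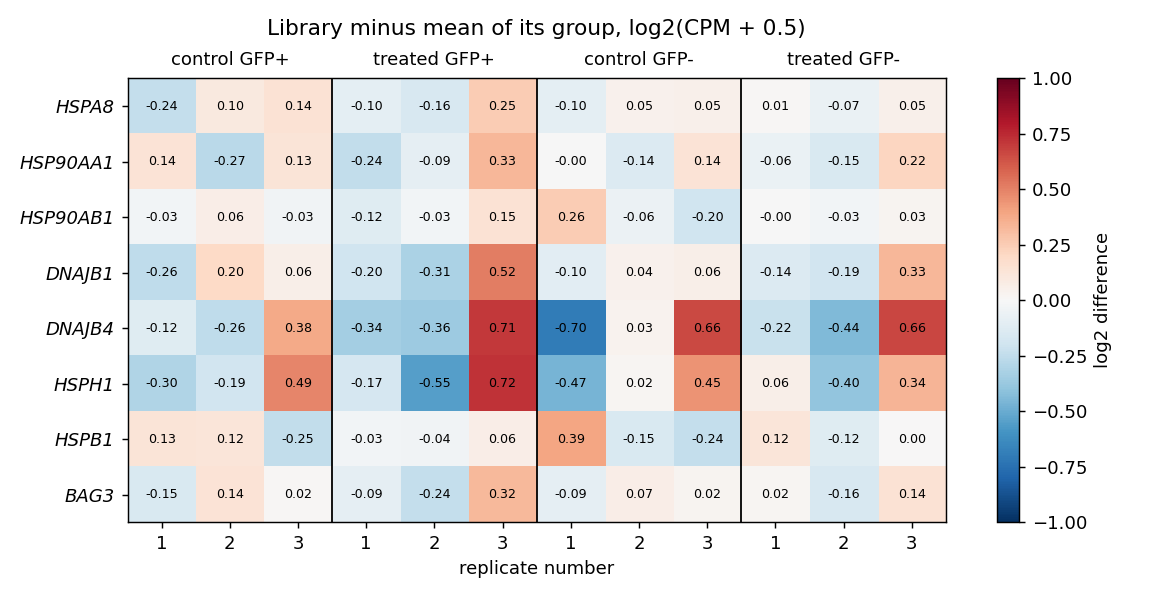
Difference of each library from the mean of its group in log2(CPM + 0.5), for the 8 counted members in rows and the 12 libraries in columns, red for above and blue for below the mean. The treated GFP-positive replicate 3 column is above its group mean in every row, by 0.06 for HSPB1 to 0.72 for HSPH1.

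In GFP-negative cells DNAJB4 and BAG3 rose after treatment and no member fell. DNAJB4 rose 2.39-fold, where 8.59% of all genes were called higher by at least 2-fold, and BAG3 rose 1.47-fold. Of 8 members tested 2 were called higher and 0 lower (edgeR), beside 15.3% and 16.2% of all genes, and the median log2 fold change of the 8 was 0.07 beside -0.01 over all 15513 genes. The 95% interval excluded a doubling for 7 of the 8 and a halving for 8.

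BAG3 was at 56.6, 63.2 and 61.4 CPM in control and 90.8, 80.3 and 99.2 CPM in treated GFP-negative libraries, without overlap. The log2 fold change of BAG3 was 0.56 with an SE of 0.15 (adjusted p = 0.021, edgeR), and the call was lost without control replicate 2 (adjusted p = 0.072), treated replicate 1 (adjusted p = 0.091) or treated replicate 3 (adjusted p = 0.058). DNAJB4 was at 2.99, 5.29 and 8.43 CPM in control and 10.8, 9.20 and 20.4 CPM in treated GFP-negative libraries, also without overlap. The wide spread left DNAJB4 a log2 fold change of 1.26 with an SE of 0.41 (adjusted p = 0.042, edgeR), and leaving out control replicate 1 or 2 or treated replicate 1 or 3 took the adjusted p to 0.069, 0.12, 0.092 and 0.22. HSPB1 was at 209, 143 and 135 CPM in control and 125, 105 and 115 CPM in treated GFP-negative libraries, so that every treated library was lower, with a log2 fold change of -0.52 (adjusted p = 0.066, edgeR). DESeq2 and a fit of all 12 libraries called HSPB1 lower. Treated libraries lay wholly above the control libraries in 2 of the 8 members and 24% of all genes, and wholly below in 1 of 8 and 22.6% of all genes.

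The remaining members did not pass the test in GFP-negative cells, and their groups overlapped. HSPA8 was at 1699, 1874 and 1879 CPM in control and 1899, 1798 and 1954 CPM in treated GFP-negative libraries. DNAJB1 was at 197, 219 and 221 CPM in control and 171, 165 and 237 CPM in treated ones, where replicate 3 alone exceeded the controls. HSP90AB1 had a log2 fold change of 0.18 (95% interval -0.14 to 0.50), HSPH1 of 0.11 (-0.45 to 0.67) and HSPA8 of 0.03 (-0.24 to 0.31). DNAJB1 had a log2 fold change of -0.17 (-0.56 to 0.22) and HSP90AA1 of -0.07 (-0.41 to 0.27). Their adjusted p lay between 0.37 for HSP90AB1 and 0.87 for HSPA8 (edgeR).

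HSP90AA1 was past the test in GFP-positive cells and not in GFP-negative cells, and BAG3 the reverse, but the response itself was not shown to differ between the fractions for any member. The interaction of treatment and sort fraction was called for 0 of 8 counted members by edgeR and for 0 by DESeq2, beside 2.19% of 16226 genes by edgeR (157 higher and 198 lower, or 266 and 84 with library size as the only scaling), and 0 of the 8 had an unadjusted p under 0.05. The smallest was that of HSP90AA1, whose log2 response was 0.48 larger in GFP-positive cells, with a 95% interval from -0.03 to 0.99 (adjusted p = 0.33, edgeR). The intervals of DNAJB4 (-0.76 to 1.55) and HSPH1 (-0.61 to 1.25) allowed a difference of 2-fold between the fractions.

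HSPB1, BAG3 and DNAJB1 were lower in the GFP-positive than in the GFP-negative fraction, with or without treatment. In bulk RNA of this kind, fewer cells of a type and less RNA of a gene per cell cannot be told apart. HSPB1 lies at chr7:76302673-76304295 on the plus strand of hg38, with 3 exons, and BAG3 at chr10:119651380-119677819 on the plus strand, with 4 exons. HSPB1 was at 162 ± 40.6 CPM in control GFP-negative and 38.8 ± 5.58 CPM in control GFP-positive cells, a 4.49-fold difference (log2 fold change -2.17, SE 0.20, adjusted p = 2e-05, edgeR). In treated cells the difference in HSPB1 was 3.83-fold, at 115 ± 9.81 against 29.5 ± 1.16 CPM (adjusted p = 6.5e-07, edgeR). No GFP-positive library reached the lowest GFP-negative library under either treatment.

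BAG3 was 1.89-fold lower in GFP-positive than in GFP-negative control cells (log2 fold change -0.92, adjusted p = 0.00094) and 2.06-fold lower in treated cells (log2 fold change -1.04, adjusted p = 0.00036), both by edgeR. Its group means were therefore ordered as treated GFP-negative at 90.1 ± 9.47, control GFP-negative at 60.4 ± 3.41, treated GFP-positive at 43.0 ± 9.07 and control GFP-positive at 34.4 ± 3.52 CPM, of which the last 2 overlapped. DNAJB1 was 1.68-fold lower in GFP-positive control cells and 1.73-fold lower in GFP-positive treated cells (adjusted p = 0.0035 and 0.0091, edgeR). In controls 3 of 8 counted members were called lower in the GFP-positive fraction and 0 higher, beside 23.1% and 17.1% of all genes. The culture was also used as a block, with the replicate number taken to mark a culture shared by both fractions, which the labels do not state. HSP90AB1 (adjusted p = 0.036) and HSPH1 (adjusted p = 0.0011) were then also called lower by edgeR, 5 members in all. In treated cells 4 of 8 were lower, HSPA8 being the other (log2 fold change -0.42, adjusted p = 0.03), and 2 were higher, DNAJB4 (log2 fold change 0.88, adjusted p = 0.04) and HSP90AA1 (log2 fold change 0.43, adjusted p = 0.048), beside 24.9% of all genes in each direction (3832 higher and 3846 lower, or 4931 and 3045 with library size as the only scaling). The calls of DNAJB4 and HSP90AA1 were lost without treated GFP-positive replicate 3, at an adjusted p of 0.3 for each, and in 6 and 10 of 17 alternatives in all. In treated cells the lower calls of DNAJB1 and HSPA8 were lost in 3 and 5 of 17 alternatives.

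Sums of cell type markers also differed between groups. The summed level of 8 genes of cycling cells, such as MKI67 and TOP2A, was 793 to 951 CPM in control GFP-negative and 92.6 to 130 CPM in control GFP-positive libraries, and 235 to 323 against 51.7 to 57.1 CPM in treated libraries. The sum of 10 genes of neural progenitors was 6347 to 8421 CPM in control GFP-negative and 3382 to 3740 CPM in control GFP-positive libraries. In treated libraries it was 7416 to 8480 against 2611.5 to 3429 CPM. Of 9 such genes tested, 8 were called lower and 1, NKX6-1, higher in control GFP-positive cells, beside 23.1% and 17.1% of all genes. In treated cells 6 were lower and 1 higher, again NKX6-1, beside 24.9% of all genes each way. With treatment 6 of 9 fell and 1, VIM, rose in GFP-negative cells, beside 16.2% and 15.3% of all genes. The sum did not fall, so it did not follow most of its genes and is not read as an amount of progenitors. The sum of 8 genes of mesenchymal cells was 761 to 886 CPM in control GFP-negative, 261 to 326 CPM in control GFP-positive, 469 to 762 CPM in treated GFP-negative and 50.5 to 82.1 CPM in treated GFP-positive libraries. The sum of 8 motor neuron genes was 1721 to 1925 CPM in control and 513 to 702 CPM in treated GFP-positive libraries. Of the 8, 7 were called lower with treatment there, beside 24.4% of all genes. In GFP-negative libraries the sum was 300 to 343 CPM in control and 110 to 144 CPM in treated ones. There 5 of the 8 were called lower, beside 16.2% of all genes. In controls 7 of the 8 were higher in the GFP-positive fraction, beside 17.1% of all genes, and LHX3 was lower. No gene of the cycling or motor neuron list was at 0 in any group. The part of these cells in the levels of HSPB1, BAG3 and DNAJB1 was not tested.

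The HSP90 and HSP70 families also have members in the ER and in mitochondria, and these were read from the same libraries. HSPA5, the HSP70 of the ER, was at 307, 293 and 358 CPM in control and 3649, 2840 and 3052 CPM in treated GFP-positive libraries, a 10.4-fold rise (log2 fold change 3.38, adjusted p = 1.2e-17, edgeR), and rose 11.6-fold in GFP-negative cells (log2 fold change 3.54, adjusted p = 4.7e-06, edgeR). Per kilobase, HSPA5 was at 81.4 ± 8.85 CPM in control GFP-positive cells, far below HSPA8, and at 811 ± 107 CPM in treated GFP-positive cells, where HSPA8 was at 612 ± 97.8 CPM. HSP90B1, the HSP90 of the ER, rose 6.46-fold in GFP-positive and 4.12-fold in GFP-negative cells. HSPA9, the mitochondrial HSP70, rose 4.88-fold and 4.35-fold, at log2 fold changes of 2.29 and 2.12.

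As lists, 10 of 11 ER chaperones of the HSP70 and HSP90 systems rose in each fraction, with median log2 fold changes of 2.22 and 1.59. Of 11 mitochondrial chaperones tested, 5 rose in GFP-positive cells (DNAJC19, GRPEL2, HSCB, HSPA9 and HSPD1) and 2 in GFP-negative cells (GRPEL2 and HSPA9), and none fell, where 26.5% and 15.3% of all genes were called higher. HSPD1, the mitochondrial chaperonin HSP60, had a log2 fold change of 0.79 in GFP-positive cells (adjusted p = 0.00011, edgeR) and 0.37 in GFP-negative cells (adjusted p = 0.11, edgeR). The median log2 fold changes of the mitochondrial list were 0.65 and 0.19, against 0.36 and 0.07 for the 8 counted cytosolic members.

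**Figure D4:**
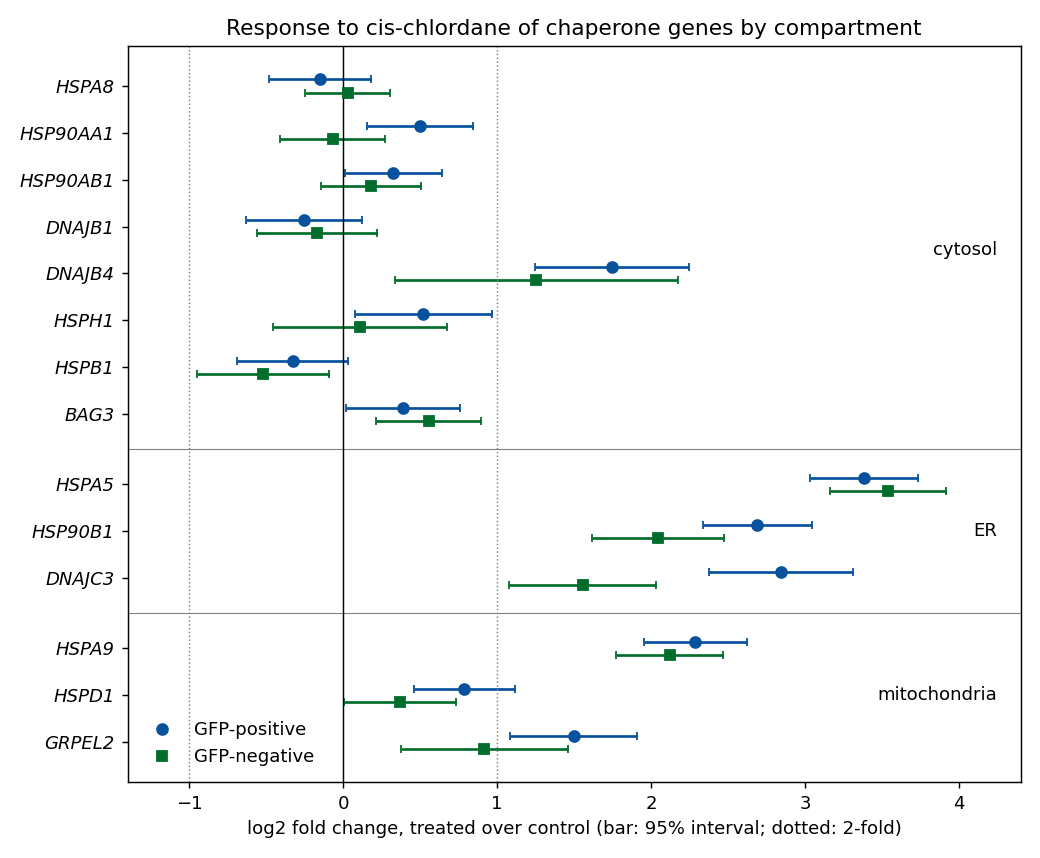
Log2 fold change between treated and control libraries with its 95% interval, for the 8 counted cytosolic members and for 3 chaperone genes each of the ER and of mitochondria, circles for GFP-positive and squares for GFP-negative cells, with dotted lines at 2-fold. DNAJB4 is the cytosolic gene past the dotted line in both fractions, while HSPA5 and HSP90B1 lie at 2.04 or above.

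The regulators and partners of the members were examined as lists. Of 4 heat shock factors tested in GFP-positive cells none rose and 1 fell, HSF4 (log2 fold change -1.09, adjusted p = 0.011, edgeR). Over all genes 26.5% were called higher and 24.4% lower, so 1 of 4 lower is near that share. The call of HSF4 was lost without control replicate 1 (log2 fold change -0.68, adjusted p = 0.16), with the GC trend removed (-0.66, adjusted p = 0.13) or with all 12 libraries in 1 fit (adjusted p = 0.07). HSF1, the main factor of the response, had a log2 fold change of 0.13 (adjusted p = 0.53, edgeR) and HSF2 of 0.35 (adjusted p = 0.10, edgeR). In GFP-negative cells 0 of 4 were called, beside 15.3% of all genes higher and 16.2% lower. HSF1 had a log2 fold change of 0.33 there (adjusted p = 0.12, edgeR). With the GC trend removed HSF1 was called higher in both fractions, at log2 fold changes of 0.54 (adjusted p = 0.0022, edgeR) and 0.61 (adjusted p = 0.0063, edgeR). Transcript levels of a factor do not measure its activity.

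HSPA6, a strictly stress-inducible HSP70 that is nearly silent in resting cells, had 1, 0 and 10 counts in control and 69, 41 and 103 counts in treated GFP-positive libraries. The groups did not overlap, and the log2 fold change of HSPA6 was 4.09 with an SE of 0.59 (adjusted p = 5e-07, edgeR), at a mean of 1.99 ± 0.78 CPM after treatment. With counts this low the log2 fold change of HSPA6 was 6.68 when control replicate 3 was left out and 3.46 when control replicate 2 was, the highest and lowest values, and it was called in all 16 alternatives that tested it. In GFP-negative cells HSPA6 already had 17, 25 and 100 counts in controls and 49, 26 and 77 counts after treatment (log2 fold change 0.13, adjusted p = 0.91, edgeR). This value depended on single libraries. Over 17 alternatives it ran from -0.29 to 1.54, the highest without control replicate 3, and HSPA6 was called higher in 1 of them. The difference between the fractions in the HSPA6 response was 3.87 on the log2 scale and did not pass the test (adjusted p = 0.11, edgeR). It was 4.10 and passed with the culture as a block (adjusted p = 0.0019, edgeR), and it was 6.45 without control GFP-positive replicate 3 (adjusted p = 0.049, edgeR). HSPA6 has a near copy, HSPA7, with which reads may be shared. As for DNAJB4 and HSPH1, replicate 3 was the highest library for HSPA6 in each of the 4 groups.

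Among 7 other HSP70 and HSP110 genes tested in GFP-positive cells 3 rose (HSPA6, HSPA13 and HSPA14) and 2 fell (HSPA12A and HSPA4L). HSPA13, an HSP70 of microsomes, had a log2 fold change of 1.65 (adjusted p = 1.5e-09) and HSPA12A of -1.22 (adjusted p = 6.8e-08), both by edgeR. In GFP-negative cells 1 rose (HSPA13) and 2 fell (HSPA12A and HSPA2). Beside the 26.5% of all genes called higher and 24.4% called lower in GFP-positive cells, of 18 other J proteins of the cytosol 7 rose and 3 fell in GFP-positive cells, with DNAJC2, a J protein of the ribosome, at a log2 fold change of 1.80, DNAJC12 at 1.38 and DNAJA4 at 1.12. In GFP-negative cells 5 of 17 rose and 0 fell, where 15.3% of all genes were called higher and 16.2% lower.

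Of 3 other small heat shock proteins tested in GFP-positive cells 1 rose (HSPB7) and 1 fell (HSPB6), and of 4 tested in GFP-negative cells 2 rose (HSPB7 and CRYAB) and 1 fell (HSPB6). Over all genes 26.5% rose and 24.4% fell in GFP-positive cells, and 15.3% and 16.2% in GFP-negative cells. HSPB6 fell in both fractions, at log2 fold changes of -1.27 in GFP-positive cells (adjusted p = 0.0033, edgeR) and -1.29 in GFP-negative cells (adjusted p = 0.0034, edgeR). HSPB7, a small heat shock protein known from heart muscle, had at most 2 counts in the control GFP-positive libraries and 23 to 34 counts in the treated ones. Against a floor of 3 counts per library, HSPB7 was at least 8.21-fold higher in treated GFP-positive and at least 10.6-fold higher in treated GFP-negative cells. CRYAB, the small heat shock protein alpha B-crystallin, rose in GFP-negative cells (log2 fold change 1.72, adjusted p = 0.0061, edgeR) and was too low to be tested in GFP-positive cells. HSPB7, CRYAB, HSPA14, HSPA4L, HSPA2, DNAJC19, HSCB and HSPBP1 were named after their values were seen.

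BAG5, a BAG protein that exchanges the nucleotide of HSP70, rose at a log2 fold change of 1.17 in GFP-positive cells (adjusted p = 1.5e-06, edgeR) and 0.55 in GFP-negative cells (adjusted p = 0.033, edgeR), where the call was lost in 8 of 17 alternatives (adjusted p up to 0.17). Of 6 such exchange factors BAG5 alone was called higher, in both fractions, and HSPBP1 was called lower in GFP-positive cells. Of 18 co-chaperones of HSP90 and HSP70 tested in GFP-positive cells 7 rose and 7 fell, against 26.5% and 24.4% of all genes. FNIP1, which slows the ATPase of HSP90, had a log2 fold change of 1.74 and CDC37L1, a relative of the kinase adaptor CDC37, of 1.07. Of 13 subunits of the TRiC chaperonin and prefoldin, which fold actin and tubulin, 5 rose and 1 fell, TCP1 with a log2 fold change of 0.98. In GFP-negative cells 4 of 19 co-chaperones rose and 1 fell, and 3 of 13 chaperonin and prefoldin subunits rose and 0 fell, against 15.3% and 16.2% of all genes. Of 19 immediate early genes tested in GFP-positive cells 11 rose and 0 fell, with log2 fold changes of 4.54 for ATF3, 4.24 for FOSL2 and 4.18 for KLF4.

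The balance of the HSP90 pair did not shift with treatment beyond the spread of the libraries. HSP90AA1 made up 33.1%, 26.0% and 33.1% of the counts of the pair in control and 31.3%, 32.2% and 36.0% in treated GFP-positive libraries. These overlapped, with means of 30.7% ± 4.10 and 33.2% ± 2.52 (SD, n = 3, exact permutation test, two-sided, p = 0.6). In GFP-negative cells the share of HSP90AA1 was 28.2% ± 4.33 in control and 24.6% ± 2.16 in treated cells (n = 3, exact permutation test, two-sided, p = 0.2). With 3 libraries a group the smallest p that this test can give is 0.1. Treated GFP-positive cells exceeded treated GFP-negative cells by 8.61 percentage points in the share of HSP90AA1, without overlap, at that smallest p (n = 3, exact permutation test, adjusted p = 0.4 over 8 comparisons). That test ignored the cultures that the fractions were taken to share. Within the cultures numbered 1, 2 and 3 the difference was 7.51, 9.31 and 9.02 points in treated and 8.49, -1.04 and 0.0848 points in control cells. Over 3 cultures an exact paired permutation test cannot go below a p of 0.25, which is the value in treated cells, a comparison chosen after seeing the data.

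The genes whose levels ran most like those of the members were found by the Pearson correlation of log2 CPM over the 12 libraries among genes with a mean of at least 10 CPM. DNAJB1 ran most closely with PRPF4 (r = 0.98), RAE1 (r = 0.95) and ALDH9A1 (r = 0.95), and HSPA8 with DNAJB1 (r = 0.93), NUP88 (r = 0.91) and ALDH9A1 (r = 0.91). BAG3 ran with WFS1 (r = 0.98), an ER membrane protein, HMGA1 (r = 0.97) and GNPDA1 (r = 0.97). The summed HSPA1A and HSPA1B counts ran with MAEA (r = 0.89), TRAPPC4 (r = 0.88) and MRPL44 (r = 0.87). At 0 to 13 and 2 to 23 counts per library the pair was too low to be measured, so this ranking is not read as likeness. The 12 libraries share the 4 groups, their depth and the culture of each sorted pair, so these correlations describe the libraries and carry no test.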

How the data were processed

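RNA-seq libraries of 12 sorted samples were analysed, 3 in each of 4 groups taken from the labels. A replicate is an independent thaw per the study's methods. The deposited values are raw counts per gene symbol. The authors aligned reads with HISAT2 to hg38, and featureCounts is listed in the submitters' processing notes. The handling of reads with several positions is not given in the sources used here. Per-sample columns left unused numbered 0.

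Counts were scaled by TMM, and filterByExpr of edgeR 4.0.16 (R 4.3.3) kept genes by a minimum count of 10 and a minimum total of 15. Each comparison was fitted over all genes by the quasi-likelihood F-test with Benjamini-Hochberg adjustment, on the groups compared (all 12 libraries for the interaction). Called genes had an adjusted p under 0.05, and 2-fold changes are given separately. Intervals are 95% intervals of the fitted log2 fold change. CPM values use TMM over all 12 libraries, and CPM per kb uses the transcript lengths of GENCODE 44, which is not the authors' annotation and matched 25763 of 28278 symbols. Promoters are from RefSeq (GRCh38.p14), and 10 of 10 members matched. The members and lists were chosen with earlier results of these data known. Beside the members and a fixed set of chaperones and factors, genes were named as up to 3 genes per list with the largest change in GFP-positive cells among those past both thresholds at a mean of at least 1 CPM, and for lists without such a gene the most changed gene past the test.

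Lists covered heat shock factors, other HSP70 and HSP110 proteins, J proteins, small heat shock proteins, exchange factors, co-chaperones, TRiC and prefoldin, ER and mitochondrial chaperones, immediate early genes and cell markers. The markers of glia, interneurons, neurons and pluripotent cells had, in control GFP-positive and control GFP-negative cells, mean sums of 11.8 and 62.5, 10.9 and 52.3, 15424 and 7514, and 162 and 238 CPM. GFP-positive and GFP-negative libraries of the same treatment and number correlated in their deviations from the group means at 0.12 to 0.48 over 16226 genes in all 6 pairs. The highest correlation with another number lay between -0.22 and 0.17, below that of the same number in each pair. The number was taken to mark a shared culture because of the sort design, as correlations this low do not settle it. Alternatives were DESeq2 1.42.0, scaling by RLE or by library size alone, a filter of 10 counts in each library or none at all, the replicate number as a block, 1 fit of all 12 libraries, removal of trends with GC content or length (loess, span 0.5), the summed HSPA1 pair and leaving out libraries. No pair of replicates agreed within sampling noise. The fits were tested on simulated data, and figures were drawn with matplotlib 3.10.9.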

Additional observations from a re-analysis of the deposited data

Results flagged for a closer look

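For 1 gene named above the response to cis-chlordane differed between the sort fractions in the main fit, which did not block on the culture. Over all genes the interaction was called for 2.19%. The gene had been named for its large change in GFP-positive cells, and that same value enters the interaction. FOSL2, an immediate early gene of the AP-1 family, had a log2 fold change of 4.24 in GFP-positive and 1.38 in GFP-negative cells, and the interaction was 2.77 on the log2 scale (adjusted p = 8.2e-05, edgeR). Before treatment FOSL2 was lower in GFP-positive than in GFP-negative cells, at a log2 fold change of -2.32 (adjusted p = 2.8e-05, edgeR). The interaction of HSPA6 passed with the culture as a block (adjusted p = 0.0019, edgeR) and not in the main fit (adjusted p = 0.11, edgeR).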

How the results depend on the processing

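For the 8 counted members, 720 log2 fold changes were recomputed under the alternatives. Of these, 624 kept their direction and their side of the threshold, 46 lost a call, 28 gained one and 22 changed sign. DNAJB4 stayed called higher in GFP-positive cells throughout (adjusted p up to 0.0026), as HSPB1 and BAG3 stayed called lower in GFP-positive than GFP-negative cells in both treatments. The interaction was called for no member under any alternative. The causes of the changes below were not tested.

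In GFP-positive cells the count of members called higher was 5 with library size alone (BAG3 and HSP90AB1 added) and 1 without replicate 3 of every group. The count called lower was 1 with the GC trend removed (HSPA8, adjusted p = 0.046) and 2 without replicate 3 of every group, and the count higher by 2-fold was 0 with the GC trend removed. HSPB1 (0.15) and HSF2 (-0.14) changed sign with the GC trend removed. In GFP-negative cells the count called higher was 1 with library size alone or without replicate 3 of every group, the count called lower was 1 (HSPB1) with DESeq2, library size alone, all 12 libraries in 1 fit, the length trend removed or without replicate 3 of every group, and the count higher by 2-fold was 0 with library size alone or the GC trend removed. Signs changed there for HSPA8 (-0.034 with library size alone, -0.063 with the GC trend removed), HSPH1 (-0.11 with the GC trend removed) and HSPA6 (-0.0035 with library size alone).

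Between control fractions HSPA8 (0.044) and HSP90AA1 (0.030) changed sign with the length trend removed. Between treated fractions 2 members were called higher in the main result, 1 with DESeq2, RLE scaling, at least 10 counts in every library or without replicate 3 of every group, and 0 with all 12 libraries in 1 fit or the GC trend removed. The count lower was 2 with the length trend removed, where HSP90AB1 changed sign (0.023). By 2-fold, 1 was higher with library size alone or the length trend removed, and 1 was lower with library size alone, the GC trend or the length trend removed. The interaction changed sign for DNAJB1 (0.11) and BAG3 (0.016) with library size alone. With library size alone the levels were 1792 CPM for HSPA8 and 2581 CPM for HSP90AB1 in treated GFP-negative cells, 1874 CPM for HSP90AB1 in control GFP-positive cells and 32.1 CPM for HSPB1 in treated GFP-positive cells. Library size alone moved the median of all genes from 0.03 to 0.14 in GFP-positive cells, from 0.05 to 0.22 between treated fractions and from -0.05 to 0.20 in the interaction.

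The replicate block, here taken as the culture, took the members lower in control GFP-positive cells from 3 to 5. Whether treated and control libraries of the same number share a thaw is not stated in the labels (correlations from -0.04 to 0.30). A replicate block there gave 4 members higher in GFP-positive cells (HSP90AB1 added) and 2 in GFP-negative cells. The replicate block changed no other member count by over 1.5 times. Over all genes the interaction called 157 higher and 198 lower in the main result, 519 and 745 with the replicate block, and 411 and 378 with DESeq2. Between control fractions 2638 genes were called higher and 3554 lower in the main result, 4414 and 3113 with the GC trend removed, and 4324 and 3067 with the length trend removed.

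With 1 library left out at a time, the members called in GFP-positive cells were 1 to 4 higher, 0 to 2 lower and 0 to 1 lower by 2-fold. The 2 lower were DNAJB1 and HSPA1B, without treated GFP-positive replicate 3. HSPA1B, too low to be measured, was also the 1 lower by 2-fold, so no counted member was. In GFP-negative cells the members called were 0 to 2 higher, 0 to 1 higher by 2-fold and 0 to 1 lower. Between control fractions 0 to 1 were higher. Between treated fractions 0 to 2 were higher, 0 to 1 higher by 2-fold, 2 to 5 lower and 1 to 3 lower by 2-fold. Log2 fold changes in GFP-negative cells ran from -0.012 to 0.068 for HSPA8, -0.089 to 0.36 for HSPH1, -0.19 to 0.011 for HSP90AA1 and -0.29 to 1.54 for HSPA6, the last without control replicate 3. HSPH1 between treated fractions ran from -0.68 to 0.0084. Interactions ran from -0.31 to 0.098 for DNAJB1, -0.019 to 0.85 for DNAJB4, -0.057 to 0.27 for HSP90AB1 and -0.094 to 0.27 for HSPB1. The share of the HSPA1 pair in the HSP70 counts differed between treated and control GFP-negative cells by 0.010 points, and by -0.0045 to 0.022 points with a library left out. The 3 libraries a group limit small changes, and the few counts of HSPA1A and HSPA1B limit the inducible HSP70 pair.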
